A study of Homo sapiens with 4 samples.

Results

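The 7 genes described here, E2F1, E2F2, BCL2L11, TNFRSF21, TGFBR2, STAT3 and ZNFX1, are published targets of the miR-17 family of microRNAs. They were chosen by symbol from the 26364 gene symbols of the count table. The choice was made with earlier results of these libraries known and took in targets whose mRNA had moved toward heavy polysomes in the labelled knockout. That shift is therefore given for the members as a description with no test.

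HCT116, a line grown from a human colorectal carcinoma, was used either as wild type or labelled as a Dicer1 knockout. Cytoplasmic extract of each was separated on a sucrose gradient into a heavy fraction, with 10 or more ribosomes per mRNA, and a light fraction, with 9 or fewer. Each of the 4 combinations of genotype and fraction was sequenced once. Genotype differences are therefore unreplicated and carry no p-value. No clone number or site of the Dicer1 alteration is given in the sources used here.

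MicroRNAs guide Argonaute proteins to matching sites in the 3′ UTR of mRNAs, which lowers translation and shortens the life of the mRNA. The main contact is the seed, the bases near the 5′ end of the microRNA. Dicer makes the mature microRNA from its hairpin precursor. The miR-17 family comes from related gene clusters that MYC and E2F factors switch on, and it is abundant in colorectal tumours.

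The mature sequences are shown because all 6 share 1 seed, so that one set of matches serves the whole family. They are RefSeq sequences (GRCh38.p14), written 5′ to 3′, with the seed, bases 2 to 8, in capitals.
hsa-miR-17-5p: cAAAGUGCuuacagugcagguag
hsa-miR-20a-5p: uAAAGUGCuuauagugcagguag
hsa-miR-20b-5p: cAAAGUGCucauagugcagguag
hsa-miR-93-5p: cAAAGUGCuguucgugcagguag
hsa-miR-106a-5p: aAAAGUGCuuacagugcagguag
hsa-miR-106b-5p: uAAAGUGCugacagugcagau

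The genes of miR-17 and miR-20a lie on chromosome 13 (the mature miR-17-5p from 91350618 to 91350640 on the plus strand of GRCh38), inside the host gene MIR17HG. Those of miR-93 and miR-106b lie on chromosome 7 (miR-93-5p from 100093815 to 100093837 on the minus strand), inside MCM7. Those of miR-20b and miR-106a lie on chromosome X.

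Each of the 7 mRNAs held 2 to 4 seed matches in the 3′ UTR of its GENCODE transcript, 18 in all. A match was a 7mer-m8 (GCACTTT), a 7mer-A1 (CACTTTA) or an 8mer (GCACTTTA), which contains both and was counted once, and only the mRNA strand was searched. ZNFX1 held 4 matches, 2 of them 8mers, in 1367 nucleotides. E2F2 and STAT3 held 3 each, all 7mer-m8, and E2F1 held 2 of that kind. BCL2L11 and TGFBR2 each held 1 8mer and 1 7mer-A1, and TNFRSF21 held 1 8mer and 1 7mer-m8. Of the 18 matches, 2 directly follow the same 15 bases, the last 10 of them TGTAATCCCA: site 1 of ZNFX1 and site 3 of STAT3. In 10591 genes, 18.2% of 5437 matches follow these 10 bases. Such matches are counted like the others in the numbers and densities given here. Without them all 7 members still held a match.

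The following sites are shown because they carry the strongest kind of match (8mers) or, in E2F1, lie in GC-rich sequence. Each is the mRNA strand from 5′ to 3′, with the match in capitals, taken from GENCODE release 44 (GRCh38).
ZNFX1 site 2: atttacccctgcgctagagtaaGCACTTTA
ZNFX1 site 4: ttcctttttttgtctttactatGCACTTTA
TNFRSF21 site 1: tgtattttcaagattattctgtGCACTTTA
TGFBR2 site 1: tttacaatagccaataacatttGCACTTTA
BCL2L11 site 1: acgtgccagtctcctgactagaGCACTTTA
E2F1 site 1: gtgcgcgtgggggggctctaactGCACTTT
E2F1 site 2: tgctctgccccaccctccaatctGCACTTT

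The 8mers of TGFBR2 and TNFRSF21 lie in AU-rich sequence, with 76.7% and 73.3% A or U in the 30 bases on each side. The 8mer of BCL2L11 has 40% there and site 1 of E2F1 has 35%. Site 2 of E2F1 has 43.3%, and site 1 of ZNFX1, which is not shown, has 33.3%. The 8mers start 268 nucleotides after the stop codon in TGFBR2, 335 in TNFRSF21, 484 and 1324 in ZNFX1 and 1999 in BCL2L11. The matches per kilobase of 3′ UTR ran from 0.475 in BCL2L11 to 2.93 in ZNFX1, against a median of 0.505 among genes with a match.

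**Figure D1:**
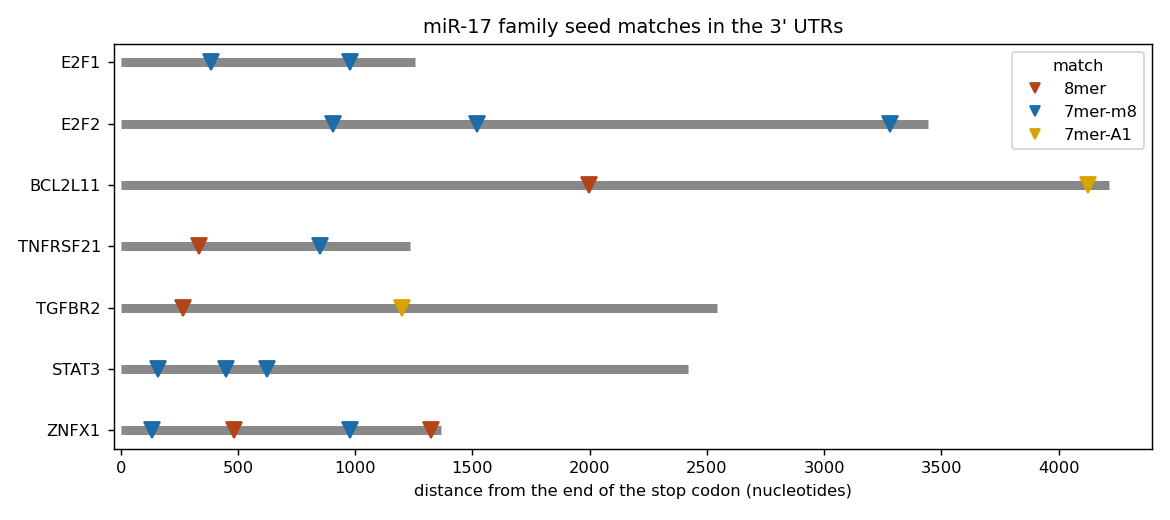
Position of each miR-17 family seed match (triangles, coloured by kind) along the 3′ UTR (grey bar) of the 7 mRNAs, in nucleotides from the end of the stop codon. ZNFX1 carries 4 matches in 1367 nucleotides, and BCL2L11 carries 2 in 4213.

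Among 10591 genes with a 3′ UTR and 50 or more counts in all 4 libraries, a match of any kind was present in 32.1%, an 8mer in 5.80%, at least 3 matches in 4.40% and at least 2 8mers in 0.415%. The choice of published targets favours such sites, so the members' matches are a description.

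Fewer members held matches to other microRNAs of the same clusters than to the miR-17 seed. The choice of published targets favours the latter. None held a miR-18 match, 3 of 7 held a miR-19 match (BCL2L11, E2F2 and TGFBR2) and 1 held a miR-92 match (BCL2L11). Among the 10591 genes these were present in 16.0%, 22.3% and 20.4%. A miR-34 match was present in 4 of 7 members (E2F2, STAT3, TGFBR2 and ZNFX1) and in 24.0% of the genes. BCL2L11, with the longest 3′ UTR of the 7 at 4213 nucleotides, held matches to 4 of the 8 other families searched.

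The libraries held 17457116 to 20933675 counts. All 7 members had at least 208 counts in each library, and all entered the fit. Values of a gene in the 4 libraries are given below in 1 order: wild type heavy, wild type light, then heavy and light of the labelled knockout. DICER1, the gene named by the labels, had 500, 547, 925 and 889 counts. It was thus higher, not lower, in the libraries labelled knockout (log2 genotype ratio, which is labelled knockout over wild type throughout, 0.95 in heavy polysomes and 0.96 in light). A count over all exons does not tell which transcripts, working or not, were read. Of 7 epithelial colon markers, 6 had at least 50 counts in each library and VIL1 had none. Of 20 markers of stroma and blood, 3 did (COL1A1, CD68 and ACTA2), 4 were at 0 throughout, and their summed count was 696 to 1425 per library. The heavy to light ratios of 10834 genes were more widely spread in the wild type (SD 1.17, log2) than in the labelled knockout (SD 0.90), which touches the shifts given further on.

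Levels are given as CPM (counts scaled to library size, with TMM factors). A level per length is CPM per kilobase of the GENCODE transcript, and a counting interval is a 95% interval that covers counting error only. By mean level per length over the 4 libraries the order was TNFRSF21 (25.4), STAT3 (14.9), E2F1 (13.6), TGFBR2 (7.12), ZNFX1 (6.82), BCL2L11 (4.49) and E2F2 (3.49). The ranges of neighbours in this order overlapped in each case, for example 16.6 to 42.1 for TNFRSF21 and 4.73 to 25.9 for STAT3. In bulk libraries, fewer cells with an mRNA and less of it per cell cannot be told apart.

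The first pair is E2F1 and E2F2, transcription factors that drive entry into DNA replication and are held back by RB proteins. E2F1 lies on chromosome 20 from 33675477 to 33686385 (minus strand) and E2F2 on chromosome 1 from 23506438 to 23531233 (minus strand) of GRCh38. E2F1 stood at 36.0 and 46.0 CPM in heavy and light polysomes of the wild type and at 34.6 and 29.4 CPM in those of the labelled knockout. E2F2 stood at 20.8, 23.2, 17.3 and 11.3 CPM in the same order. For both mRNAs the light library of the labelled knockout was the lowest of the 4 and that of the wild type the highest.

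In light polysomes E2F1 had a log2 genotype ratio, labelled knockout over wild type, of -0.64 (counting interval -0.79 to -0.49) and E2F2 of -1.03 (-1.26 to -0.80). In heavy polysomes the ratios were -0.06 (-0.22 to 0.10) and -0.26 (-0.48 to -0.05). E2F2 was thus 2.04-fold lower in light polysomes and lower by less in heavy ones, where E2F1 had an interval that included 0. E2F2 was the 1 member at least 2-fold lower in light polysomes, beside 3.05% of all genes that reached 100 counts in either library of the pair. With DESeq2 size factors its ratio was -0.98 and no member passed 2-fold on that side.

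The second pair acts in cell death. BCL2L11 encodes BIM, a BH3-only protein that binds BCL2 and its relatives and triggers apoptosis. It lies on chromosome 2 from 111119378 to 111168444 (plus strand). BCL2L11 stood at 12.1 and 28.1 CPM (wild type, heavy and light) and at 22.1 and 29.3 CPM (labelled knockout). The light levels were nearly alike, and the heavy level of the labelled knockout was the higher of that pair.

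The log2 genotype ratio of BCL2L11 was 0.86 in heavy polysomes (0.63 to 1.10) and 0.06 in light ones (-0.11 to 0.23), the latter -0.02 with library totals. Its exons overlap those of MIR4435-2HG, transcribed from the other strand, for 10.8% of their length. That gene had 57, 228, 38 and 154 counts (log2 genotype ratio -0.50, -1.09 to 0.09, in heavy polysomes), and without the strand setting reads of the shared stretch cannot be told apart.

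TNFRSF21 encodes death receptor 6, a member of the TNF receptor family with a death domain, and lies on chromosome 6 from 47231532 to 47309905 (minus strand). Its levels were 59.8 and 151 CPM in the wild type (heavy, light) and 70.8 and 83.9 CPM in the labelled knockout. The wild type light library stood alone at the top. The log2 genotype ratio was 0.24 in heavy (0.13 to 0.36) and -0.85 in light polysomes (-0.94 to -0.76).

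TGFBR2 and STAT3 belong to signalling by extracellular factors. TGFBR2, the type II receptor that binds TGF-beta and activates SMAD proteins, lies on chromosome 3 from 30606601 to 30694142 (plus strand). HCT116 cells are known to lack a working TGFBR2 protein, so the values concern its mRNA alone. TGFBR2 stood at 13.1 and 37.3 CPM in wild type heavy and light polysomes, and at 29.1 and 49.7 CPM in the same fractions of the labelled knockout. Both libraries of the labelled knockout were above the wild type library of the same fraction, by log2 ratios of 1.15 in heavy (0.93 to 1.37) and 0.41 in light polysomes (0.28 to 0.55).

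STAT3, a transcription factor activated by JAK kinases below cytokine receptors such as that of interleukin 6, lies on chromosome 17 from 42313324 to 42388540 (minus strand). Its level was 128 CPM (heavy) and 23.3 CPM (light) in the wild type, against 110 and 32.6 CPM in the labelled knockout. Heavy levels were several times the light ones in both genotypes. The log2 genotype ratio was -0.21 in heavy (-0.30 to -0.13) and 0.49 in light polysomes (0.32 to 0.66), the reverse of the order in TNFRSF21.

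ZNFX1, an interferon-induced helicase with NFX1-type zinc fingers that senses viral RNA, had the highest genotype ratios of the 7. It lies on chromosome 20 from 49237946 to 49278426 (minus strand). The 4 counts were 630, 334, 1906 and 787, or 33.3, 15.2, 105 and 42.8 CPM. Each library of the labelled knockout exceeded both wild type libraries. The log2 ratio was 1.66 in heavy (1.53 to 1.79) and 1.49 in light polysomes (1.31 to 1.68), that is 3.15-fold and 2.81-fold higher.

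Of the genes with enough counts, 99.4% had a lower genotype ratio than ZNFX1 in heavy polysomes and 99.1% in light ones. ZNFX1 shares 2.67% of its exon length with ZFAS1, an abundant RNA from the opposite strand. ZFAS1 had 1743, 6902, 1110 and 3313 counts, lower in the labelled knockout, and lay mostly in light polysomes, whereas ZNFX1 did the opposite in both respects. A further 2.17% is shared with DDX27 on the opposite strand, whose log2 genotype ratios were 0.03 and 0.59.

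**Figure D2:**
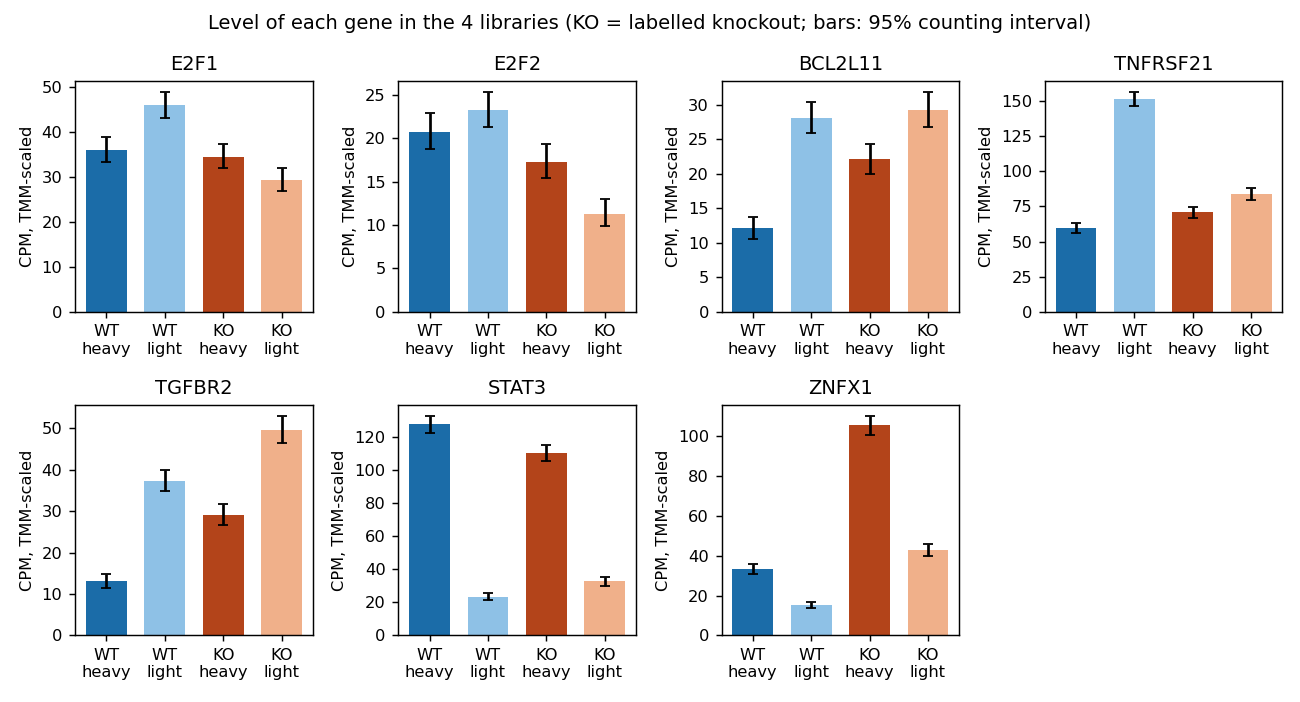
Level of each of the 7 genes (CPM, TMM-scaled, linear axis from 0) in the 4 libraries, 1 library per bar, with 95% counting intervals. Labelled knockout light is the lowest bar for E2F1 and E2F2, wild type light is the highest for TNFRSF21 at 151 CPM, and both labelled knockout bars exceed both wild type bars for ZNFX1.

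Set side by side, heavy polysomes of the labelled knockout held 2 of 7 members at 2-fold or more above the wild type (ZNFX1 and TGFBR2), beside 3.26% of all genes, and 0 at 2-fold or more below it, beside 2.6%. In light polysomes 1 was 2-fold higher (ZNFX1), beside 3.91%. In heavy polysomes the counting interval lay above 0 for 4 members, beside 33.0% of genes, and below 0 for 2, beside 39.6%. In light polysomes it lay above 0 for 3, beside 37.9%, and below 0 for 3, beside 36.2%. The members' median log2 ratio was 0.24 in heavy and 0.06 in light polysomes, and the median of 10834 genes was -0.03 and 0.02. The 7 genes showed no single direction: ZNFX1 and TGFBR2 were higher in both fractions, E2F1 and E2F2 were lower in light ones, and BCL2L11 was higher in heavy ones. The genotype ratios are part of the contrast used in choosing the members, and nothing is read from these counts.

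**Figure D3:**
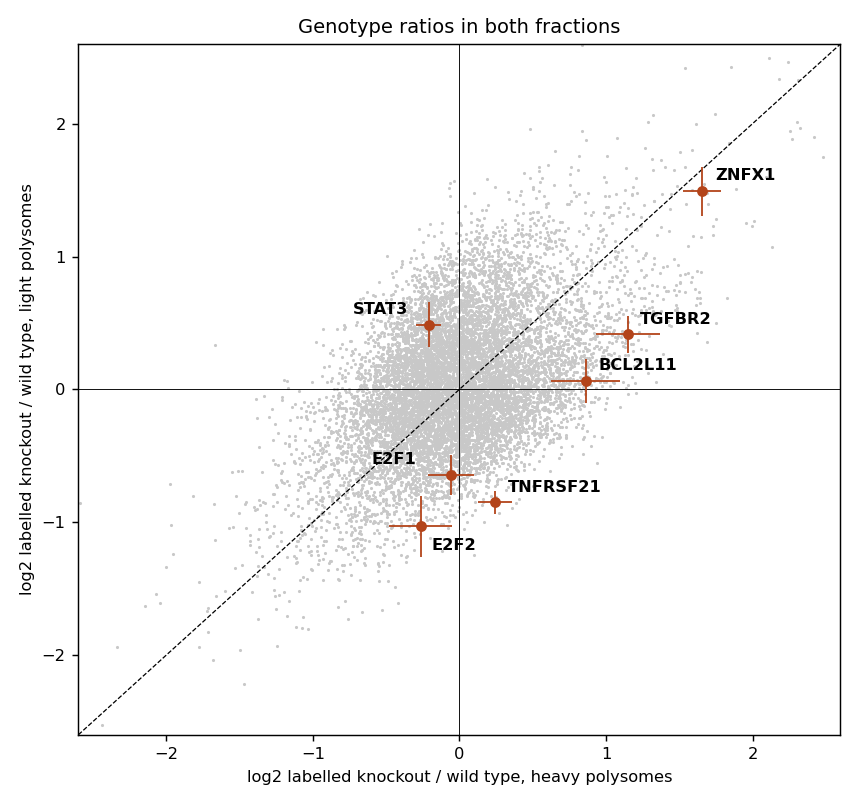
Log2 genotype ratio, labelled knockout over wild type, in heavy (x axis) and light polysomes (y axis) for the genes that reached 50 counts in all 4 libraries (grey, 12 genes lie beyond the axes) and for the 7 members (orange, bars are 95% counting intervals). On the dashed line both ratios are equal; 6 members lie below it, to the right, and STAT3 above it.

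The distribution over the fractions is the comparison with a test, because both gradients give a heavy and a light library. In edgeR's quasi-likelihood fit with the gradient as a block, 5 of 7 members were called, beside 59.3% of 13574 genes: 2 toward heavy polysomes, beside 30%, and 3 toward light ones, beside 29.3%. A share near the background is no result about the members as a set. The fitted log2 ratio, heavy over light, was 2.10 for STAT3 (SE 0.28, edgeR adjusted p = 3.39e-12) and 1.22 for ZNFX1 (SE 0.27, adjusted p = 2.54e-05). Toward light polysomes, TGFBR2 stood at -1.14 (SE 0.26, edgeR adjusted p = 5.93e-05), BCL2L11 at -0.80 (SE 0.26, adjusted p = 0.00454) and TNFRSF21 at -0.79 (SE 0.28, adjusted p = 0.00896).

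Neither E2F gene was called, with 0.21 for E2F2 (SE 0.26, edgeR adjusted p = 0.487) and -0.06 for E2F1 (SE 0.26, adjusted p = 0.847). The fit has 1 residual degree of freedom, and its spread is the disagreement of the genotypes, shared over many genes. The SE of a member hardly follows the disagreement of its own 2 gradients. TNFRSF21, with gradients that differed by 1.09, had an SE of 0.28, and ZNFX1, with 0.17, had one of 0.27. Without the block STAT3 alone was called (edgeR adjusted p = 0.00349), and TGFBR2 (0.0547), TNFRSF21 (0.0687), ZNFX1 (0.106) and BCL2L11 (0.106) were not.

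Longer coding sequences take more ribosomes, so each member was set beside genes whose coding length lay within 1.25 times of its own. TGFBR2, with 1704 coding nucleotides, lay at -1.14 where 2594 such genes had a median of 0.40. TNFRSF21, with 1968, lay at -0.79 against a median of 0.51 for 2351 genes. STAT3, with 2313, lay at 2.10 against 0.61 for 2035 genes. BCL2L11, with 597 coding nucleotides, at -0.80 lay near the median of its 1242 genes (-0.66), and ZNFX1, with 5757, at 1.22 lay near that of its 388 (0.94).

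The shift is the difference of the log2 ratios of heavy to light, labelled knockout less wild type. It was above 0 in 6 of 7 members, beside 46.5% of 10834 genes, and in 5 the counting interval lay above 0, beside 28.6%. These are the values by which members were partly chosen. None lay 2-fold toward light polysomes, beside 2.37%, and STAT3 alone had an interval below 0, beside 37.1%. TNFRSF21 went from -1.34 in the wild type to -0.25 in the labelled knockout, a shift of 1.09 (0.95 to 1.24). It was the 1 member past 2-fold, beside 0.905% of genes, and just inside that limit: with DESeq2 size factors it came just short of 2-fold.

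BCL2L11 went from -1.21 to -0.40, a shift of 0.80 (0.51 to 1.09), the nearest member outside the 2-fold limit. E2F2 went from -0.16 to 0.61 (shift 0.77, 0.45 to 1.08) and TGFBR2 from -1.51 to -0.77 (0.73, 0.48 to 0.99). E2F1 went from -0.35 to 0.23 (0.58, 0.37 to 0.80). ZNFX1 kept nearly the same ratio, 1.13 and 1.30 (shift 0.17, -0.06 to 0.39), and STAT3 went the other way, from 2.45 to 1.75 (-0.70, -0.89 to -0.51).

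The parts of the shift differed between the genes. In BCL2L11 and TGFBR2 a higher heavy level made it up, with light levels equal or less raised. In TNFRSF21, E2F1 and E2F2 it came mainly from a lower light level, with log2 genotype ratios between -1.03 and -0.64 there.

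Over all genes the shift followed the wild type ratio. The 1978 genes at or below -1 in the wild type had a median shift of 0.39, and the 2852 genes at or above 1 had one of -0.53. The wild type value enters both quantities. Each member was therefore also set beside genes whose wild type ratio lay within 0.25 of its own, a comparison added after the data were seen. Their median shift was 0.37 for TNFRSF21 (1204 genes), 0.36 for BCL2L11 (1397), 0.40 for TGFBR2 (920), 0.13 for E2F1 (1596) and 0.07 for E2F2 (1546). For STAT3 it was -0.79 (396 genes) and for ZNFX1 -0.35 (1232).

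After subtraction of these medians the shift was 0.72 in TNFRSF21, 0.70 in E2F2, 0.51 in ZNFX1, 0.45 in E2F1, 0.44 in BCL2L11, 0.33 in TGFBR2 and 0.09 in STAT3. STAT3 thus lay at percentile 61.9 of its comparison genes, TGFBR2 at 84.1 and TNFRSF21 at 98.9. Members were partly chosen by the shift, so these differences and ranks are a description only. The negative shift of STAT3 was about that of other mRNAs as heavy as it in the wild type.

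**Figure D4:**
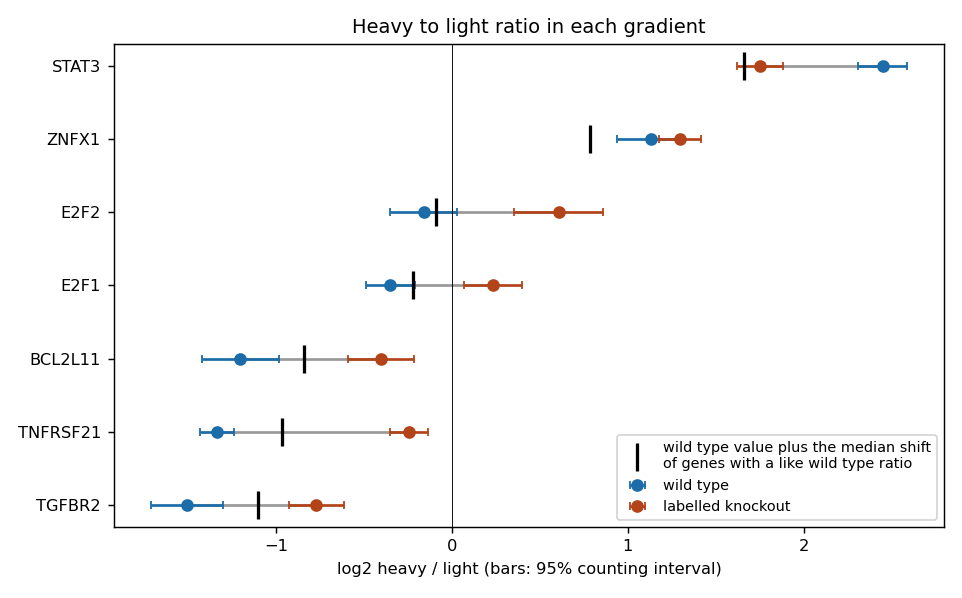
Log2 heavy to light ratio of the 7 genes in the wild type (blue) and the labelled knockout (orange) with 95% counting intervals, 1 gradient each; the black tick is the wild type value plus the median shift of genes with a like wild type ratio. The labelled knockout lies to the right of the tick in each row, by 0.72 for TNFRSF21 and by 0.09 for STAT3. Members were partly chosen by their shift, so this is a description only.

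Among 10833 other genes above the same count minimum, those with the most similar profile over the 4 libraries were named by Euclidean distance of centred log2 CPM. They were SENP5 (distance 0.02) and TTL (0.03) for BCL2L11, MAPKAPK2 (0.04) and TNFRSF10B (0.04) for E2F1, and PIP5K1A (0.09) and TRIM38 (0.12) for E2F2. For TGFBR2 they were PXYLP1 (0.05) and SLC39A9 (0.10), and for TNFRSF21 TMEM125 (0.11) and WASL (0.11). FUK (0.04) was nearest to STAT3, and CRY2 (0.11) and P3H3 (0.17) to ZNFX1. TNFRSF10B, a TRAIL death receptor, is itself a published target of the family. Likeness over 4 libraries is a weak measure, since many profiles lie close together.

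A list of 40 other published miR-17 family targets gave a median log2 genotype ratio of 0.18 (heavy polysomes) and 0.22 (light), beside -0.04 and 0.00 for all genes that met the same count minimum. Of 38 with enough counts, 5 were at least 2-fold higher in heavy polysomes (RUNX1, FYCO1, ZBTB4, ITGB8 and PPARA), beside 3.26% of all genes, and 2 were 2-fold lower (VEGFA and CTGF), beside 2.6%. In light polysomes 4 were 2-fold higher (CCND1, APP, ITGB8 and ZFYVE26), beside 3.91%, and VEGFA was lower, beside 3.05%. These shares of all genes are the background for the 2-fold counts of the pathway lists as well. ITGB8, an integrin subunit with 5 seed matches, had 31, 89, 157 and 235 counts, and log2 ratios of 2.33 and 1.64. PPARA, a nuclear receptor of lipid metabolism with 5 matches, stood at 1.61 and 0.76. CTGF, a secreted matrix protein that held no match in its 3′ UTR here, stood at -1.21 and -0.61. THBS1 and PHLPP1 of the list held no match either, so a place in the list does not imply a seed match. For which microRNA of the clusters each listed gene was reported was not checked here, and other microRNAs of the same clusters have other seeds.

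The median shift of that list was 0.03, beside -0.05 for all genes, with 19 of 37 above 0, beside 46.5% of all genes. For this list and those that follow, shifts are ranked only among genes with 50 or more counts in all 4 libraries. PPARA had the highest shift (0.85) and APP, the amyloid precursor, the lowest (-1.38). APP and SQSTM1 were the 2 past 2-fold, both toward light polysomes. In the fraction fit 18 of 39 were called heavy, beside 30% of all genes, and 5 light, beside 29.3%, with RBL2, MAPK9, BMPR2 and ITGB8 among the latter. The list shares members with the pathway lists that follow.

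Around E2F1 and E2F2, the RB and E2F pathway list of 25 genes had 24 in the fit, with 5 called heavy, beside 30% of all genes, and 9 called light, beside 29.3%. Its median genotype ratio was -0.01 in heavy and -0.18 in light polysomes. CDK6, a kinase that inactivates RB, had 885, 965, 4208 and 4049 counts and log2 ratios of 2.31 and 2.33. E2F7, a repressor of E2F targets, was also 2-fold higher in heavy polysomes (1.15, and 0.03 in light ones) and had the highest shift of the list (1.12). E2F7 held no miR-17 match. E2F5 (-1.10, 16.6% of its exons shared with C8orf59 on the opposite strand), TFDP2 (-1.15), a dimer partner of E2F proteins, and the CDK inhibitor CDKN2B (-1.01) were 2-fold lower in heavy polysomes. The cyclin gene CCND1 (1.18), CDK6 and the CDK inhibitor CDKN1C (1.12) were 2-fold higher in light ones, and CDKN2B (-1.35) was 2-fold lower. CDKN1C had the lowest shift (-1.10).

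E2F-driven replication genes were called heavy in 17 of 22, beside 30% of all genes. GINS2, a subunit of the replicative helicase, alone was called light, beside 29.3%. Their median genotype ratio was -0.23 in heavy and 0.25 in light polysomes, and 1 of 22 was 2-fold lower. That gene was MCM7, the helicase subunit that hosts miR-93 and miR-106b, with 14335, 1870, 5309 and 1155 counts (log2 genotype ratios -1.37 and -0.43). MCM7 had the lowest shift of the list (-0.94) and CDC25A, a phosphatase that activates CDKs, the highest (0.76). MIR17HG, the host of miR-17 and miR-20a, had 3, 18, 13 and 18 counts, too few for a ratio to be read.

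Around BCL2L11, 10 of 14 fitted BCL2 family genes were called light, beside 29.3% of all genes. Only MCL1, a survival protein, was called heavy (fitted log2 ratio 1.32, SE 0.29, edgeR), beside 30%. The 10 included the survival genes BCL2 (-0.82) and BCL2L1 (41.3% of its exons shared with the antisense RNA ABALON) as well as BAX and the BH3-only genes BBC3 (-0.66) and PMAIP1. The median fitted log2 ratio of the 14 was -0.67, and that of genes with a coding length like that of BCL2L11 was -0.66. For none of the gene lists was a part of coding length in the fraction calls tested. Of 11 with enough counts in heavy polysomes none passed 2-fold between the genotypes there. Of 12 with enough counts in light polysomes, HRK (-1.15) and BBC3 (-1.28), both BH3-only, were 2-fold lower. HRK had only 25, 104, 12 and 38 counts. The shift ran from -0.43 in MCL1 to 0.91 in BAK1, a pore-forming death protein, over 11 genes with 50 counts in each library. It was above 0 in 8 of them, beside 46.5% of all genes, with a median of 0.33.

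The TNF and death receptor list around TNFRSF21 had 5 of 17 called heavy, beside 30% of all genes, and 3 light (TNFRSF1A, TNFRSF12A and FAS), beside 29.3%. Its median genotype ratio was -0.17 in heavy and -0.05 in light polysomes. TNFRSF1A, the main TNF receptor, showed the highest shift (0.64) of the 13 genes with 50 or more counts in all 4 libraries, with a log2 genotype ratio of -0.29 (heavy polysomes) and -0.93 (light). TNFRSF10D, a decoy receptor, had the lowest of the 13 (-0.89). CASP10 was the 1 gene 2-fold lower in heavy polysomes (-1.69).

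In the TGF-beta list around TGFBR2, 3 of 25 were called heavy, SMURF1 and LTBP1 among them, beside 30% of all genes. A further 3 were called light (TGFBR1, BMPR1A and BMPR2), all receptors, beside 29.3%. None passed 2-fold between the genotypes in heavy polysomes. TGFBR1, the partner of TGFBR2 in the receptor complex, stood at 0.79 in heavy and 0.26 in light polysomes and held no miR-17 match. TGFBR3, a co-receptor for TGF-beta, had the highest shift of the list (0.72).

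Of the JAK-STAT list, 9 of 19 were called heavy, beside 30% of all genes, and 3 light (IL6ST, SOCS1 and SOCS2), beside 29.3%. IL6R, the interleukin 6 receptor, was 2-fold higher in heavy polysomes (1.5) from 50, 94, 139 and 144 counts and had the highest shift (0.64) of the 17 genes that reached 50 counts in all 4 libraries. PIAS1, an inhibitor of STAT signalling, had the lowest of the 17 (-1.29), with 30.6% of its exon length shared with CALML4 on the opposite strand.

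Around ZNFX1, 10 of 13 NFX1-type and RNA-sensing helicases and their adaptor were called heavy, beside 30% of all genes, and 0 light, beside 29.3% (3 not called at an edgeR adjusted p under 0.05). Of 12 with enough counts none was 2-fold higher or lower between the genotypes in either fraction, in contrast to the values of ZNFX1, a difference that was not tested. HELZ2, an interferon-induced helicase, stood at 0.27 and 0.03, and IFIH1, the sensor MDA5, at -0.12 and 0.54. NFXL1 had the lowest shift (-1.0) and MAVS, the adaptor, the highest (0.51), with 5 miR-17 matches.

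Over all genes with a 3′ UTR, the median genotype ratio was higher in classes with more miR-17 matches. In heavy polysomes the median was -0.08 for 7189 genes with none, 0.06 for 2166 with 1, 0.10 for 770 with 2 and 0.17 for 466 with 3 or more. In light polysomes the medians were 0.01, 0.03, 0.07 and 0.13. The median 3′ UTR lengthened alongside, from 877 to 5644.5 nucleotides. Among 3′ UTRs over 2500 nucleotides the median in heavy polysomes was 0.06 without a match, 0.14 with one and 0.21 with an 8mer (396 genes). Among those of up to 1000 nucleotides it was -0.15, -0.06 and 0.20 (60 genes with an 8mer). In 361 genes all matches followed the 10 bases TGTAATCCCA, and the medians were -0.04 in heavy and 0.03 in light polysomes. The 3041 genes with at least 1 other match stood at 0.09 and 0.06. The difference between these classes was not tested.

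The median shift was -0.10 for genes with no match, 0.04 with 1, 0.05 with 2 and 0.10 with 3 or more. It was 0.07 for those with an 8mer and 0.01 for the 44 with at least 2 8mers. Those 44 genes, ZNFX1 among them, had median genotype ratios of 0.40 in heavy and 0.28 in light polysomes. Within classes of 3′ UTR length, the median shifts with and without a match lay closer together than over all genes. Over 2500 nucleotides the median shift was 0.088 without a match, 0.091 with one and 0.070 with an 8mer. Up to 1000 nucleotides it was -0.21, -0.13 and -0.19 in that order. Between these lengths it was 0.005, 0.051 and 0.142. A part of matches apart from length was not tested.

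Among 9 families searched, genes with an 8mer to the miR-17 seed had the highest medians in heavy (0.20) and in light polysomes (0.15). The next in heavy polysomes was miR-92 (0.16) and in light ones miR-18 (0.14), and let-7 stood at 0.05 and 0.03. Median 3′ UTRs of these classes were 2611 to 3465 nucleotides long. With a match of any kind, the medians for miR-17 were 0.076 in heavy and 0.055 in light polysomes. The miR-17 family was then not the highest in light polysomes, where miR-21 stood at 0.078 and miR-200b at 0.060. In heavy polysomes miR-21 stood at 0.070. Genes can belong to several classes, and the differences between families were not tested.

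**Figure D5:**
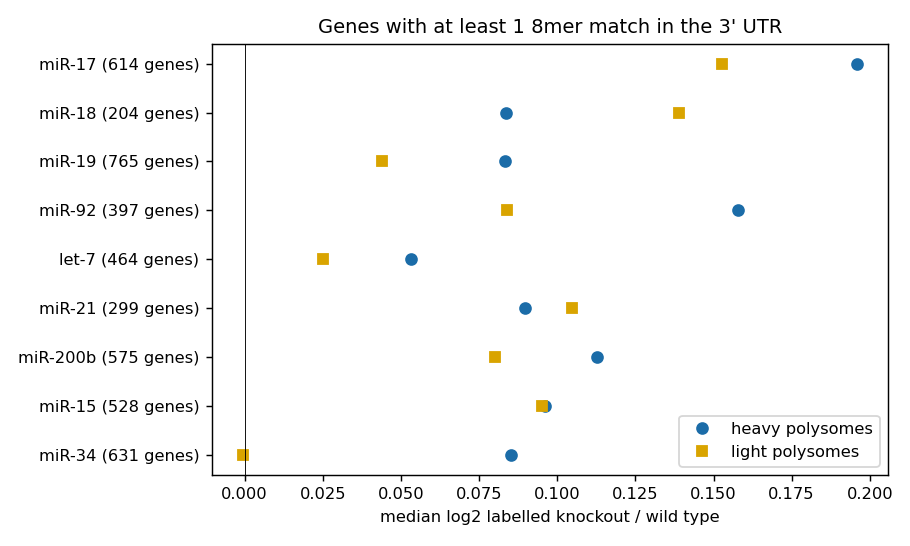
Median log2 genotype ratio, labelled knockout over wild type, in heavy (circles) and light polysomes (squares) over genes with at least 1 8mer match to each microRNA family in the 3′ UTR; the number of genes stands beside each name. The miR-17 family lies farthest to the right in both fractions, at 0.20 and 0.15. With matches of any kind, not drawn, it was not the highest in light polysomes (0.055, against 0.078 for miR-21).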

How the data were processed

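RNA of heavy and light polysomes of HCT116 cells was sequenced, 1 library per group. The deposited values are whole-number read counts per gene symbol and are not normalised. Coding lengths were called alike within a factor of 1.25 and wild type ratios within 0.25 (log2). Per the submitters' processing notes, CASAVA, STAR, HTSeq and the build hg19 were used; for versions, annotation and strand setting nothing is stated in the sources used here. Each of the 4 columns matched 1 sample, and 0 were without one.

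The fraction contrast was fitted on the whole table with edgeR 4.0.16 in R 4.3.3 (filterByExpr, TMM, quasi-likelihood test, gradient as a block, Benjamini-Hochberg adjustment, threshold 0.05), after a test on simulated data. DESeq2 1.42.0 was an alternative. Log2 ratios used TMM-scaled CPM with a prior count of 2. Intervals were computed from the read counts and cover counting error only, since each group had 1 library. The reads carry no molecular identifiers, so copied reads could not be told apart from separate molecules. Genes were counted past 2-fold with 100 or more counts in either library of a pair (genotype) or 50 in each library (shift, with an interval that excluded 0). At 3 counts the floor was 0.143 to 0.172 CPM.

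Of 26364 symbols, 24391 matched GENCODE release 44 (1356 through older symbols in RefSeq, GRCh38.p14), which gave positions, lengths and 3′ UTRs (MANE or canonical transcript, else none). All 7 members matched, as did 16 of 16 mature microRNAs. Ratios and sites were computed in Python 3.11.15 (pandas 2.3.3, numpy 2.4.6).

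The members, the 11 other gene lists and the tests were chosen with earlier results of these data known. Named beside the members were DICER1, the host genes, the highest and lowest shift of each list and the 2 nearest profiles of each member; other genes in the text were chosen after their values were seen, as members of small counts or as relatives of a member. A few genes and sites that these rules name are not reported here.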

Additional observations from a re-analysis of the deposited data

Results flagged for a closer look

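E2F1 and E2F2 lay on opposite sides of an even distribution in the 2 gradients. For E2F1 the log2 ratio of heavy to light was -0.35 (wild type) and 0.23 (labelled knockout), a difference of 0.58. E2F2 had -0.16 and 0.61, a difference of 0.77, and the counting interval of its wild type value (-0.35 to 0.03) included 0. With 1 library per group the differences were not tested. Of 10834 genes, 11.5% lay on opposite sides in this way.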

How the results depend on the processing

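A minimum of 20 counts in each library cannot change a member's own ratio, yet such comparisons are among those counted here. Of 192 comparisons with an alternative, 163 kept their call, stayed within 1.5 times of their count or moved by less than their counting interval. Among these, library totals changed the sign of the BCL2L11 genotype ratio in light polysomes (-0.0236 in place of 0.06) and of the median shift of the JAK-STAT list (0.00256 in place of -0.14). Without the replicate block, 1 member in place of 2 was called toward heavy polysomes and 0 in place of 3 toward light ones (edgeR); over all genes 2183 in place of 3977 were called light. E2F2 had a heavy to light ratio of -0.0217 with library totals in place of 0.21. The gradients taken singly gave -0.35 to 0.23 for E2F1 and -0.16 to 0.61 for E2F2, so that 1 gradient each reversed them. With DESeq2 size factors, 0 members in place of 1 were 2-fold lower in light polysomes and 0 in place of 1 passed 2-fold in the shift. Less the median of genes with a like wild type ratio, the shift of STAT3 was 0.0924 in place of -0.70. With library totals the median shift of epithelial colon markers was -0.63 in place of -0.78, while the median over all genes went from -0.05 to 0.09 (-0.14 with DESeq2 size factors). Counting 8mers alone, 4 of 7 members held a site. The cause of these moves was not tested, beyond the fewer matches counted. Depth limits E2F2 and BCL2L11 most, with 208 and 229 counts in their lowest libraries.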
